A study of Mus musculus with 12 samples.

Results

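The transcription factors of the oligodendrocyte lineage described here are Olig1, Olig2, Sox10, Sox8, Nkx2-2, Nkx6-2, Myrf and Zfp488. They were chosen by gene symbol from the expression table, and all 8 were found among its 47069 distinct Ensembl identifiers. The libraries came from Pdgfra/GFP+ cells sorted from the forebrain (called brain here) and the spinal cord of heterozygous Pdgfra-H2BGFP mice on a C57BL/6NJ background, in the embryo at day E13.5 and after birth at day 7 (P7). Each of the 4 groups had 3 libraries, and the design asked how these populations differ in time and in space. In this knock-in line a nuclear GFP fused to histone H2B is made from the Pdgfra locus, so all groups, brain and spinal cord alike, carried 1 altered Pdgfra allele. Per the study's methods, GFP outlasts Pdgfra expression into early oligodendrocyte differentiation, each sample was a pool of animals of both sexes, and E13.5 tissue was dissociated mechanically but P7 tissue with papain. The effect of age and that of the dissociation cannot be told apart in these libraries.

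Oligodendrocytes, the myelin-forming cells of the central nervous system, arise from precursor cells (OPCs) that are specified in restricted zones of the ventricular layer and then spread. Olig1 and Olig2 are basic helix-loop-helix factors, of which Olig2 is required for specification of the lineage, in the spinal cord after it has served motor neurons from the same zone. Sox10 and Sox8 are related SoxE factors that act from the precursor stage onward, Nkx2-2 and Nkx6-2 are homeodomain factors, Zfp488 is a zinc finger protein that favours differentiation, and Myrf is a membrane-bound factor that switches on myelin genes, together with Sox10, when cells stop dividing and differentiate.

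Levels are given in CPM as deposited, a read count divided by a rescaled library size. Recovered reads ranged from 12566345 to 38790312 per library, and 1 read was worth 0.026 to 0.169 CPM. E13.5 spinal cord replicate 3 stood apart from the rest, with 41.0% of its reads in protein-coding genes against 82.4% to 91.2% in the other libraries. Pdgfra itself, the gene behind the sort, lay between 341 and 787 CPM at E13.5 and between 2014 and 3402 CPM at P7. Markers of vascular and leptomeningeal cells, which also express Pdgfra, were present in every group, and none of the 10 was at 0. At E13.5 they summed to 6281 to 9451 CPM in brain and 12382 to 13518 CPM in spinal cord, and at P7 to 1545 to 1989 and 1341 to 2843 CPM. In such bulk samples fewer cells of a type and less RNA per cell cannot be told apart. Differences between groups are on the log2(CPM + 0.5) scale with their standard error (SE), from limma fitted to all 12 libraries and 18319 genes. Called genes are those that changed more than 2-fold with a Benjamini-Hochberg adjusted p below 0.05.

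All 8 factors were higher at P7 than at E13.5 in both regions, with no overlap between libraries. In the brain 7 of 8 were called higher, against a background of 11.0% of all genes, and in the spinal cord 8 of 8, against 16.9%. The one not called was Nkx6-2 in the brain. Of all genes 27.8% in brain and 39.9% in spinal cord were higher at P7 without overlap. The median log2 change of the 8 was 3.18 for brain and 4.64 for spinal cord, and that of all genes tested -0.19 and 0.12. All 8 passed the filter on low values, but Nkx6-2 did so almost wholly through its P7 libraries, which favours a difference with age for that gene.

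**Figure D1:**
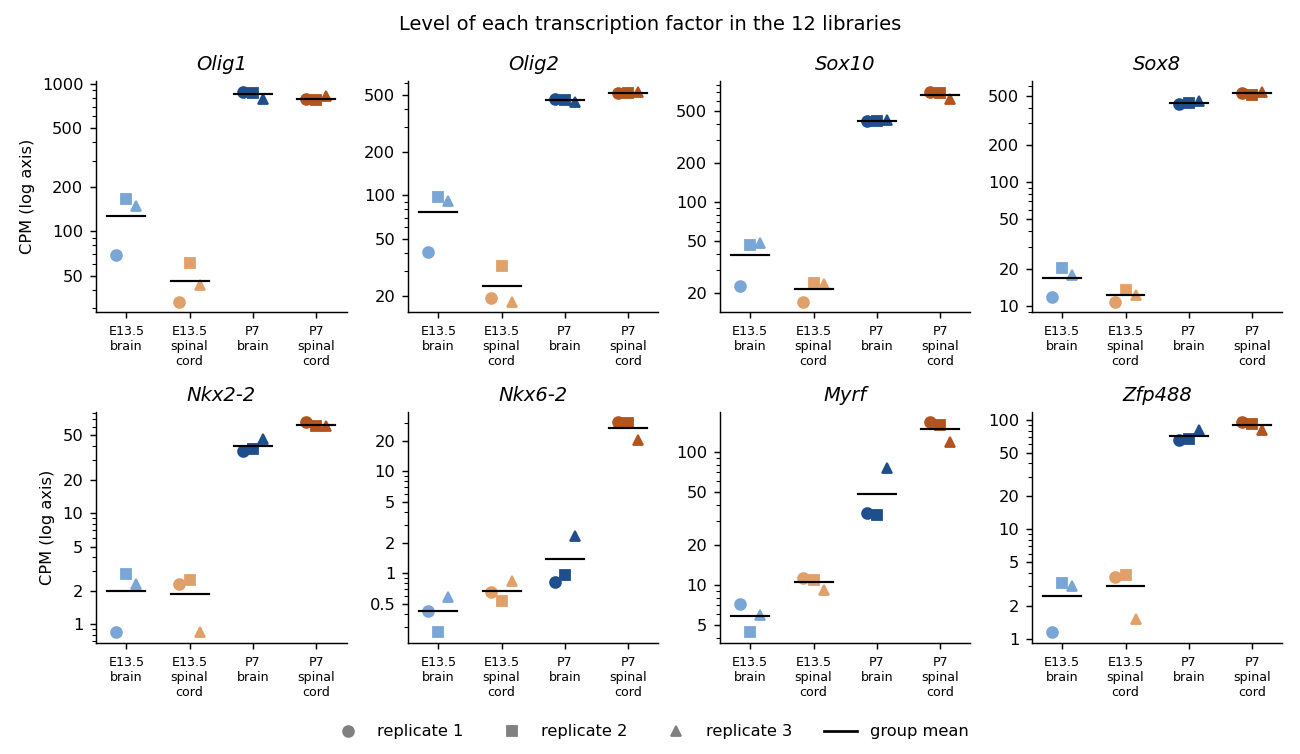
CPM of each factor on a log axis in the 12 libraries, by group, with a symbol for each replicate number and a bar for the group mean of 3 libraries. Within a region every P7 library lies above every E13.5 library for all 8 factors, and Nkx6-2 reaches only 0.818 to 2.35 CPM in P7 brain, from 0.264 to 0.590 CPM at E13.5.

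Olig1 lies on chromosome 16 (91269772 to 91271933, plus strand, mm10), with a single exon of 2162 bases in the annotation. At E13.5 it stood at 68.6, 165 and 148 CPM in replicates 1 to 3 of the brain and at 33.3, 61.0 and 42.9 CPM in those of the spinal cord. At P7 the brain libraries held 885, 869.7 and 789 CPM and the spinal cord libraries 783, 772 and 826 CPM. The E13.5 regions did not overlap, brain being higher in 3 of 3 libraries although its replicate 1 (68.6 CPM) lay close to the highest spinal cord library (61.0 CPM), whereas the P7 regions overlapped. Olig1 rose with age by 2.83 ± 0.28 in brain (adjusted p = 2.5e-06, limma) and by 4.15 ± 0.28 in spinal cord (adjusted p = 4.9e-08, limma). At E13.5 it was higher in brain by 1.41 ± 0.28 (adjusted p = 0.0021, limma), while at P7 the difference was 0.09, with a 95% interval from -0.52 to 0.70.

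Olig2 lies 41.1 kb away from Olig1 on the same chromosome and strand (91225457 to 91228677). At E13.5 it stood at 40.4, 98.2 and 91.5 CPM in brain and at 19.5, 32.5 and 18.4 CPM in spinal cord. At P7 the brain libraries were at 468, 456 and 441 CPM and those of the spinal cord at 509, 514 and 525 CPM. The brain was higher than the spinal cord in every library at E13.5 and lower in every library at P7. The E13.5 difference was called, at 1.63 ± 0.28 (adjusted p = 0.0008, limma). The P7 difference of -0.18 (95% interval -0.80 to 0.44) was not, and it equalled the shift of the median gene between the regions at that age, -0.19. After the libraries were rescaled by TMM, median ratios or DESeq2's size factors it was 0.01, 0.06 and 0.06, so no direction can be given for Olig2 at P7.

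In both regions Olig1 and Olig2 were the highest of the 8 at E13.5 per kilobase of exon, the scale on which levels of different genes can be set side by side. In E13.5 brain they stood at 58.8 ± 23.7 and 30.3 ± 12.5 CPM per kb (SD, n = 3), and in E13.5 spinal cord at 21.1 ± 6.51 and 9.28 ± 3.10. Sox10 followed, at 12.8 ± 4.74 in brain and 7.04 ± 1.23 in spinal cord, and Sox8 stood at 5.35 ± 1.40 and 3.91 ± 0.41. The other 4 were at or below 1.22 CPM per kb in either region. The ranges of Olig1 and Olig2 overlapped in E13.5 brain, and those of Olig2 and Sox10 overlapped in E13.5 spinal cord (7.27 to 12.84 and 5.62 to 7.87 CPM per kb) and nearly met in brain (lowest Olig2 15.98, highest Sox10 15.75).

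The difference between regions in Olig1 and Olig2 changed with age. Subtracting the E13.5 difference from the P7 difference gave -1.32 ± 0.40 for Olig1 (adjusted p = 0.019, limma) and -1.81 ± 0.40 for Olig2 (adjusted p = 0.0036, limma). Of the 8 factors 4 were called lower in this comparison (Olig1, Olig2, Sox10 and Nkx6-2), against a background of 9.66% (1770 genes). That background depends on the scaling, with 1241 genes called lower after TMM, 968 after median ratios and 1025 with DESeq2, and the share of all called genes that were higher went from 40.8% to 54.9%, 65.1% and 67.5%. The Olig1 call was lost with median-ratio rescaling (-0.99, adjusted p = 0.076, limma), with P7 replicates 1 and 2 averaged (-1.36, adjusted p = 0.066), and without E13.5 brain replicate 2 (-1.08, adjusted p = 0.052) or replicate 3 (-1.16, adjusted p = 0.051). Beside this, proliferation genes stood at 2071 to 2211 CPM in sum in E13.5 brain and at 864 to 894 CPM in E13.5 spinal cord, with 7 of 8 called higher in brain (all genes 3.53%). Vascular and leptomeningeal markers moved the other way, with 5 of 10 called lower in E13.5 brain and a median log2 difference of -0.75 (all genes 0.05). The part of either in the Olig1 and Olig2 difference was not tested.

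**Figure D2:**
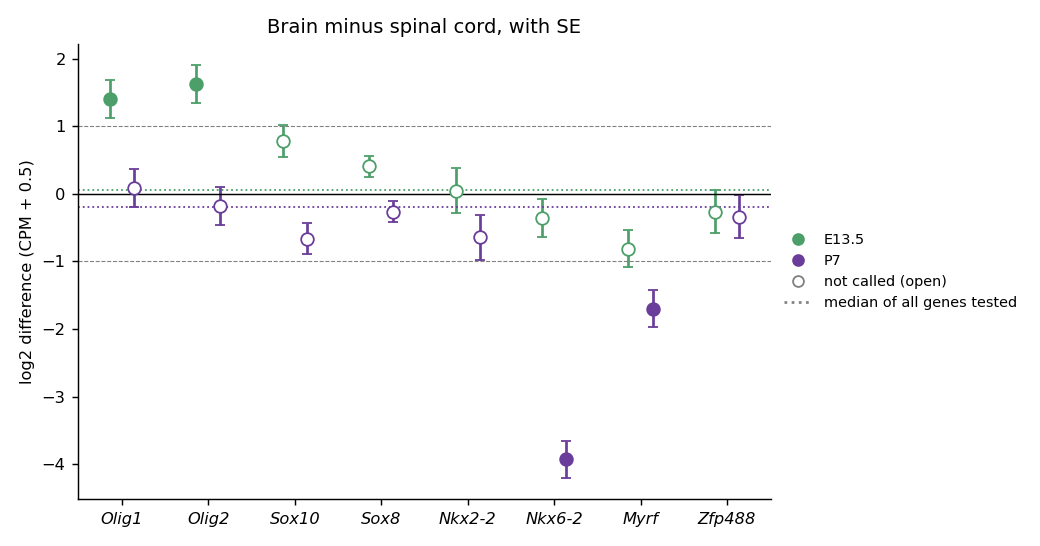
Brain minus spinal cord on the log2(CPM + 0.5) scale for each factor at E13.5 and at P7, as the fitted difference with its SE (3 libraries a group). Filled points passed the call rule, dashed lines mark a 2-fold difference and dotted lines the median of all genes tested. Olig1 and Olig2 are called at E13.5 and Nkx6-2 and Myrf at P7.

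E13.5 brain replicate 1 was the low library of its group for several of these genes. Its level was 0.44 of the mean of the other two libraries for Olig1, 0.43 for Olig2 and 0.47 for Sox10. The same library was low in Nkx2-2 and Zfp488 but not in Myrf, where it was the highest of the 3, and its Pdgfra was also the lowest, at 529 CPM against 748 and 787. Without it the E13.5 difference between regions was 1.80 for Olig1 and 2.04 for Olig2, and both remained called. Without E13.5 spinal cord replicate 3, the library of low protein-coding share, these differences were 1.39 and 1.48, both again called, and the number of factors called was the same in all 5 comparisons.

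Within each library the ratio of Olig2 to Olig1 does not depend on how libraries were scaled. At E13.5 it averaged 0.601 ± 0.016 in brain and 0.516 ± 0.080 in spinal cord (SD, n = 3). By P7 the averages were 0.537 ± 0.019 and 0.651 ± 0.015. At P7 the regions did not overlap, with 0.525 to 0.559 in brain and 0.635 to 0.665 in spinal cord. The interaction of region and age was -0.50 on the log2 scale (exact two-sided permutation p = 0.01 over 400 splits, adjusted p = 0.03 over 9 ratio tests). Neither age (0.08, exact permutation p = 0.5) nor region (-0.03, exact permutation p = 0.765) passed on its own. The 3 tests of a change were added after the data had been seen, and the smallest p that these splits allow is 0.005. They shuffled region labels within each age, so the case they test against is no region difference at either age.

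Sox10 (chromosome 15, 79154908 to 79165240, minus strand) stood at 22.5, 46.9 and 48.1 CPM in E13.5 brain and at 17.2, 24.0 and 23.3 CPM in E13.5 spinal cord. At P7 it stood at 417, 421 and 426 CPM in brain and at 706, 684 and 616 CPM in spinal cord. The E13.5 regions overlapped through the low brain replicate 1, and at P7 every spinal cord library was above every brain library. The E13.5 difference of 0.79 ± 0.23 (adjusted p = 0.021, limma) and the P7 difference of -0.66 ± 0.23 (adjusted p = 0.049, limma) both passed the p threshold at less than 2-fold, with opposite signs, and the change between them was called (-1.45 ± 0.33, adjusted p = 0.0042, limma). Relative to the median gene the P7 difference was -0.48, and it was -0.43 with median-ratio rescaling, the smallest in size of any alternative (adjusted p = 0.25, limma). Without E13.5 brain replicate 1 the E13.5 difference was 1.14 and was called.

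Sox10 also marks Schwann cells and other neural crest derivatives. Of 9 markers of those cells 4 were called lower and 1 higher in brain at E13.5 (all genes 3.53% higher). At P7 3 were called lower (all genes 4.35%) and 1 higher. Their median log2 difference was -0.27 at E13.5 and -0.94 at P7, against 0.05 and -0.19 for all genes. Their sum at E13.5 was 55.2 to 74.7 CPM in brain and 146 to 165 CPM in spinal cord, against 48.5 to 52.9 and 138 to 143 CPM at P7. The crest factor Foxd3, the one marker of the 9 at 0 in any whole group, was at 0 in both brain groups, at 1.55 to 2.02 CPM in E13.5 spinal cord and at most at 0.031 CPM in P7 spinal cord. The part of such cells in the level of Sox10 was not tested.

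Sox8 (chromosome 17, 25565892 to 25570686, minus strand) had the highest fitted rise of the 8 in both regions, although in brain that of Zfp488 (4.68) was within its SE. At E13.5 it stood at 11.8, 20.3 and 17.9 CPM in brain and at 10.8, 13.4 and 12.3 CPM in spinal cord. At P7 the brain libraries held 432, 438 and 449 CPM and the spinal cord libraries 529.7, 510.2 and 540.3 CPM. The libraries of a group lay close together, so the SE was the smallest of the 8. The rise was 4.71 ± 0.15 in brain and 5.38 ± 0.15 in spinal cord (adjusted p = 4.1e-10 and 1.1e-10, limma), and Sox10 rose by 3.49 ± 0.23 and 4.94 ± 0.23 (adjusted p = 7.2e-08 and 2.4e-09, limma). The 95% interval of the P7 region difference in Sox8 ran from -0.59 to 0.07, which holds the shift of the median gene.

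The balance between the SoxE pair shifted with age. The ratio of Sox8 to Sox10 averaged 0.444 ± 0.078 (brain) and 0.573 ± 0.053 (spinal cord) in the embryo, against 1.044 ± 0.009 and 0.791 ± 0.075 in the pups (SD, n = 3). Every P7 library, from 0.746 upward, exceeded every E13.5 library, of which the highest was 0.632. The ratio rose with age by 0.83 on the log2 scale (exact two-sided permutation p = 0.005, adjusted p = 0.022 over 9 tests), and its region difference changed by 0.78 (exact permutation p = 0.005, adjusted p = 0.022), from spinal cord higher at E13.5 to brain higher at P7. On average over the ages the regions did not differ (0.01, exact permutation p = 0.995). Per kilobase, Sox8 was slightly above Sox10 in each P7 brain library, with overlapping ranges (138.6 to 144.1 and 136.7 to 139.8 CPM per kb), whereas Sox10 was the higher in every P7 spinal cord library (201.8 to 231.5 against 163.6 to 173.3).

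**Figure D3:**
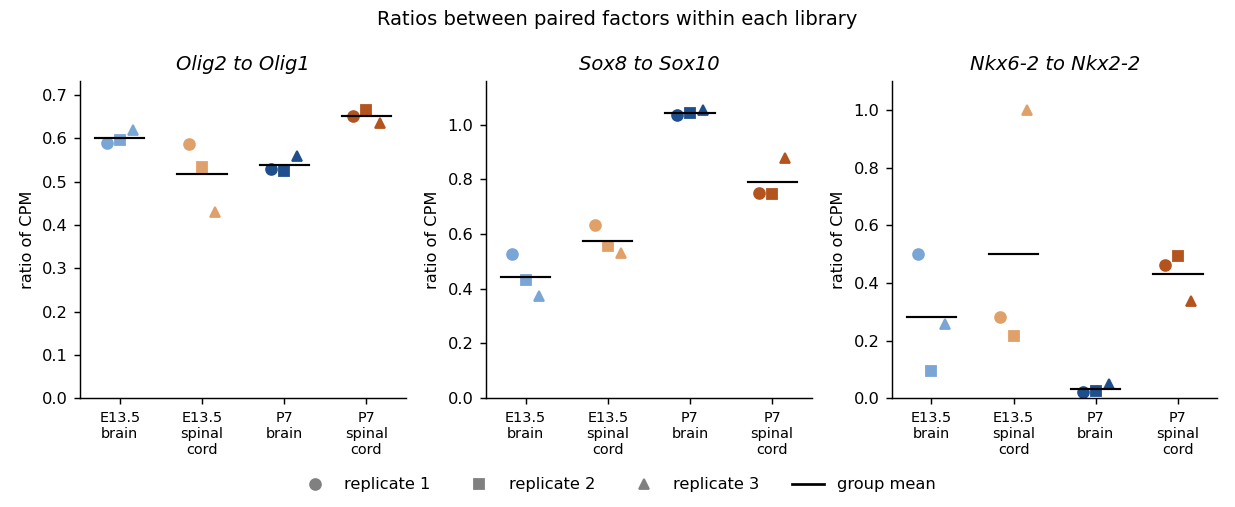
Ratio of CPM between paired factors in each of the 12 libraries, by group, with a symbol for each replicate number and a bar for the group mean of 3 libraries. Sox8 to Sox10 lies between 0.372 and 0.632 at E13.5 and between 0.746 and 1.054 at P7, and Nkx6-2 to Nkx2-2 lies between 0.023 and 0.051 in P7 brain.

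A gene on the opposite strand, 2810468N07Rik, shares 329 exonic bases with Sox8 and rose with it, by 4.73 in brain and 5.57 in spinal cord, to means of 62.6 and 109 CPM at P7. Gm10863, which begins 0.8 kb from Sox10 on the opposite strand, was called higher at P7 as well (2.26 in brain and 3.01 in spinal cord) at 18.8 and 18.0 CPM. The library kit marked strand, but whether counting used it was not given in the sources used here, so reads of Sox8 and its antisense partner may not have been told apart where they overlap. In contrast Ifnar2, the nearest tested gene on the far side of Olig1, was not called in any comparison, with means between 18.3 and 19.7 CPM in the 4 groups.

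Nkx2-2, Zfp488 and Nkx6-2 were, with Myrf, the low factors at E13.5. Their RefSeq promoters are shown for a reason of pattern, since Nkx2-2 and Zfp488 moved most alike of all 28 pairs and Nkx6-2 moved least like the rest. Each runs from 250 bases before to 50 bases after the RefSeq start (GRCm38.p6, the same build as mm10), read along the minus strand of the genome, at chr2:147186353-147186652 for Nkx2-2, chr14:33978715-33979014 for Zfp488 and chr7:139582748-139583047 for Nkx6-2. In the gene annotation Nkx2-2 begins further upstream, at 147194243, so its window lies inside the annotated span and that upstream start is not shown. Capitals mark, on either strand, the SOX core ACAAT, the E-box CAGNTG, the NKX2 core AAGTG and the MYRF motif CTGGNAC.
Nkx2-2 promoter: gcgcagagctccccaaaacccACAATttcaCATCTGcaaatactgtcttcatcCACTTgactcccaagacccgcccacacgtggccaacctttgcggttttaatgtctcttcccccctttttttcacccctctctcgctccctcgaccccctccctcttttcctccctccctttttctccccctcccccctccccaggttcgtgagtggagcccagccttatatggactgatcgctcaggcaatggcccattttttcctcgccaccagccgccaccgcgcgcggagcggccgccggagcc
Zfp488 promoter: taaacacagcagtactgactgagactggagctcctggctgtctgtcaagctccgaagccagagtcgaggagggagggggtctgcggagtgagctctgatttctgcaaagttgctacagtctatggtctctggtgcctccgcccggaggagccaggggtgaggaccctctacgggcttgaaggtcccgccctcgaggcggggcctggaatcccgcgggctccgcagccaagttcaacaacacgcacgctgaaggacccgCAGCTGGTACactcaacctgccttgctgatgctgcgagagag
Nkx6-2 promoter: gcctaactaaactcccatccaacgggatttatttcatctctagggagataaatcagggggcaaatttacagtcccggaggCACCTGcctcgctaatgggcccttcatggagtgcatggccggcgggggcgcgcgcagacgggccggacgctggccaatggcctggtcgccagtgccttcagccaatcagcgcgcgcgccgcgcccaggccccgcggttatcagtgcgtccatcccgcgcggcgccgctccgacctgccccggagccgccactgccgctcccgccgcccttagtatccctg
The Nkx2-2 window held 1 ACAAT (at -229 from the start), 1 CAGNTG (at -220) and 1 AAGTG (at -197). The Zfp488 window held a CAGNTG and a CTGGNAC that overlap each other, beginning at bases 8 and 11 after the start, and the Nkx6-2 window held 1 CAGNTG, at -170. Such matches are common, ACAAT being found in 31.0%, CAGNTG in 51.4%, AAGTG in 46.4% and CTGGNAC in 19.3% of 32851 promoters of this length, and a match describes letters only. Windows were at hand for 5 of the 8. That of Olig2 held 1 ACAAT and that of Sox8 1 CTGGNAC.

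Nkx2-2 (chromosome 2, 147177546 to 147194243, minus strand) is induced by Sonic hedgehog in the ventral neural tube and is used again at the onset of differentiation. It stood at 0.855, 2.81 and 2.31 CPM in E13.5 brain and at 2.32, 2.49 and 0.844 CPM in E13.5 spinal cord, on 5 to 64 reads per library. At P7 it stood at 36.0, 37.7 and 46.3 CPM in brain and at 65.6, 60.5 and 60.8 CPM in spinal cord. The E13.5 regions overlapped in full, and at P7 all spinal cord libraries were higher. The P7 difference was -0.64 (95% interval -1.36 to 0.08, adjusted p = 0.17, limma) and -0.45 relative to the median gene. The rise with age was 4.11 ± 0.33 in brain and 4.80 ± 0.33 in spinal cord (adjusted p = 3.8e-07 and 5.8e-08, limma). Nkx2-2os and 6430503K07Rik, antisense genes that overlap its span, were called higher at P7 in both regions too, at 2.67 to 4.95 CPM on average.

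Zfp488 (chromosome 14, 33967070 to 33978764, minus strand) stood at 1.14, 3.21 and 3.00 CPM in brain and at 3.69, 3.82 and 1.52 CPM in spinal cord at E13.5. At P7 the values were 65.4, 66.4 and 80.8 CPM for brain and 95.0, 91.5 and 81.3 CPM for spinal cord. Its rise differed little between the regions, at 4.68 ± 0.32 (brain) and 4.75 ± 0.32 (spinal cord) (adjusted p = 8.4e-08 and 4.4e-08, limma). The P7 ranges nearly met, at 80.8 and 81.3 CPM. The interaction of region and age was -0.07 for Zfp488, with an interval from -1.05 to 0.90, and its sign turned under several settings.

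Nkx6-2 (chromosome 7, 139579376 to 139582797, minus strand), a factor of ventral progenitors that is also made by myelinating oligodendrocytes, behaved unlike the other 7. In E13.5 brain it stood at 0.428, 0.264 and 0.590 CPM and in E13.5 spinal cord at 0.655, 0.533 and 0.844 CPM, on 5 to 12 reads per library. In P7 brain it was still at 0.818, 0.959 and 2.35 CPM, while in P7 spinal cord it had reached 30.2, 29.9 and 20.4 CPM. The regions overlapped at E13.5 and were far apart at P7, where the spinal cord mean was 26.8 CPM and the brain mean 1.38 CPM, or 0.888 CPM without brain replicate 3. On the log2 scale the P7 difference was -3.93 ± 0.28 (adjusted p = 1.1e-06, limma) and its change with age -3.58 ± 0.39 (adjusted p = 3.4e-05, limma). The rise was 4.52 ± 0.28 in spinal cord (adjusted p = 2.1e-08) and 0.94 ± 0.28 in brain (adjusted p = 0.011, limma), the latter below 2-fold. In brain the rise passed both thresholds under 10 of 25 alternatives, among them edgeR at 1.73, limma-voom at 1.59 and DESeq2 at 1.91 on the recovered reads, so whether it counts as called depends on the scale used for so low a gene. Inpp5a, on the opposite strand, shares 246 exonic bases with Nkx6-2, was not called in any comparison and had means of 11.2 CPM in P7 brain and 18.9 CPM in P7 spinal cord.

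Set against Nkx2-2 in the same library, Nkx6-2 was at 0.023, 0.025 and 0.051 in P7 brain and at 0.460, 0.494 and 0.336 in P7 spinal cord. At E13.5 the ratio spread from 0.094 to 1.00, on 5 to 12 reads of Nkx6-2 and 5 to 64 reads of Nkx2-2 per library. The difference was -1.73 by age (exact permutation p = 0.04, adjusted p = 0.072) and -1.85 by region (exact permutation p = 0.03, adjusted p = 0.068), and its change was -2.89 (exact permutation p = 0.075, adjusted p = 0.11). None of these passed after adjustment over the 9 ratio tests.

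Myrf (chromosome 19, 10208272 to 10240748, minus strand, 8562 exonic bases) stood at 7.13, 4.39 and 5.90 CPM in E13.5 brain and at 11.3, 10.9 and 9.11 CPM in E13.5 spinal cord. At P7 the brain libraries held 34.7, 33.5 and 75.9 CPM and the spinal cord libraries 166, 157 and 118 CPM. The spinal cord was higher at both ages without overlap. The E13.5 difference was -0.81 ± 0.27 (adjusted p = 0.037, limma), below 2-fold, and the P7 difference was called at -1.70 ± 0.27 (adjusted p = 0.0007, limma), a mean 3.06 times higher in spinal cord. With age Myrf rose by 2.86 ± 0.27 (brain) and 3.74 ± 0.27 (spinal cord) (adjusted p = 1.7e-06 and 9.4e-08, limma). The interaction of region and age was -0.88 ± 0.39 for Myrf (adjusted p = 0.087) and was called only without P7 brain replicate 3 (-1.27, adjusted p = 0.0033, limma). At E13.5 Myrf was the only one of the 8 for which all spinal cord libraries were above all brain libraries. Vascular and leptomeningeal markers also had a higher sum in E13.5 spinal cord, but whether such cells bear on the level of Myrf was not tested.

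Between the regions at E13.5, 2 of the 8 were called higher in brain (background 3.53%), Olig1 and Olig2, and none lower. At P7 2 of the 8 were called lower in brain (background 4.35%), Nkx6-2 and Myrf, and none higher. At E13.5 the groups did not overlap for 3 factors, where 37.7% of all genes were separated in either direction. At P7 7 factors were lower in brain without overlap, where 49.4% of all genes were. With TMM the library sizes of P7 brain replicates 1 to 3 were 0.860, 0.884 and 0.885 of the deposited ones. This raises their levels by 0.22, 0.18 and 0.18 on the log2 scale, while all other libraries kept their size. Small differences between P7 brain and any other group therefore depend on the scaling, and overlap was not recounted after TMM. The median over the 8 was 0.23 at E13.5 and -0.49 at P7, while the median gene stood at 0.05 and -0.19. Of all genes called at P7, 34.3% were higher in brain with the deposited scaling, against 46.6% with TMM, 49.9% with median ratios and 56.8% with DESeq2, and Nkx6-2 and Myrf were called lower under each of these.

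**Figure D4:**
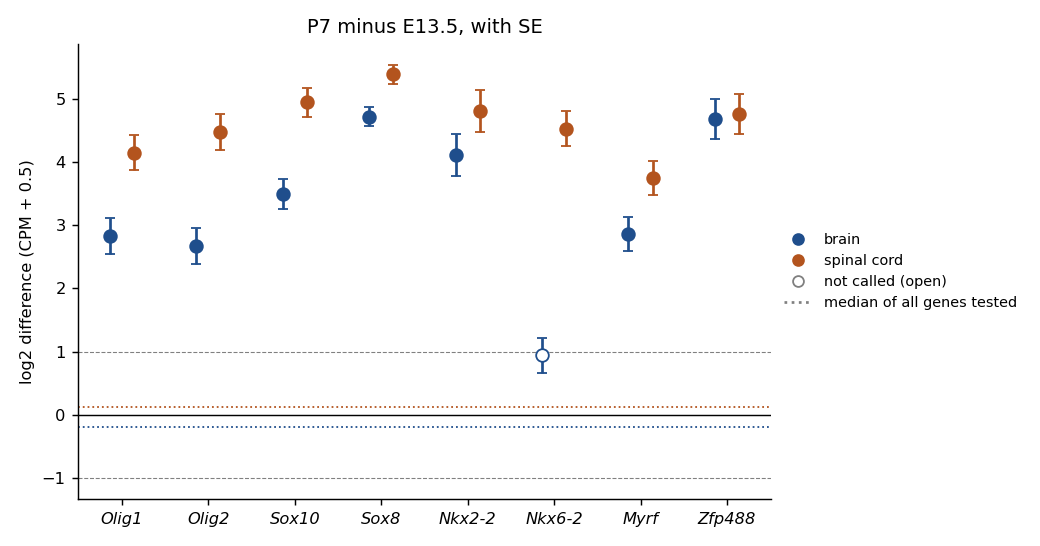
P7 minus E13.5 on the log2(CPM + 0.5) scale for each factor in brain and in spinal cord, as the fitted change with its SE (3 libraries a group). Filled points passed the call rule and dotted lines give the median of all genes tested. Spinal cord changes run from 3.74 to 5.38, and brain changes from 0.94 for Nkx6-2 to 4.71 for Sox8.

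Myrf and Nkx6-2 were also the factors whose P7 replicates differed most, and they did so together with myelin genes. P7 brain replicate 3 had the highest Myrf and Nkx6-2 of its group, and the summed level of 12 myelin genes there was 4757 CPM against 2028 and 2030 in the other two libraries. P7 spinal cord replicate 3 had the lowest Myrf and Nkx6-2 of its group, with a myelin sum of 21204 CPM against 28279 and 28666. Nkx2-2 (46.3 CPM) and Zfp488 (80.8 CPM) were also highest in P7 brain replicate 3, and Sox10 (616 CPM) and Zfp488 (81.3 CPM) were lowest in P7 spinal cord replicate 3. Olig1 was lowest in P7 brain replicate 3, and Sox10 ranged from 417 to 426 CPM in that group. Markers of newly formed oligodendrocytes moved with these levels, at 2578 CPM in sum in P7 brain replicate 3 against 1569 and 1587, and at 3681 to 4375 CPM in P7 spinal cord. That marker list includes Mog and Opalin, which are myelin genes too, so it is not independent of the myelin sum. P7 brain replicate 3 stood apart in other marker sums too, being higher for vascular and leptomeningeal cells (1989 CPM against 1545 and 1570), astrocytes (629.9 against 492 and 484) and erythroid cells (59.5 against 33.1 and 32.1) and lower for radial glia (1203 against 1704 and 1698). Vascular and leptomeningeal markers in P7 spinal cord were higher in replicate 3 as well, at 2843 CPM against 1341 and 1375. The part of such cells in the levels of Myrf and Nkx6-2 was not tested.

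**Figure D5:**
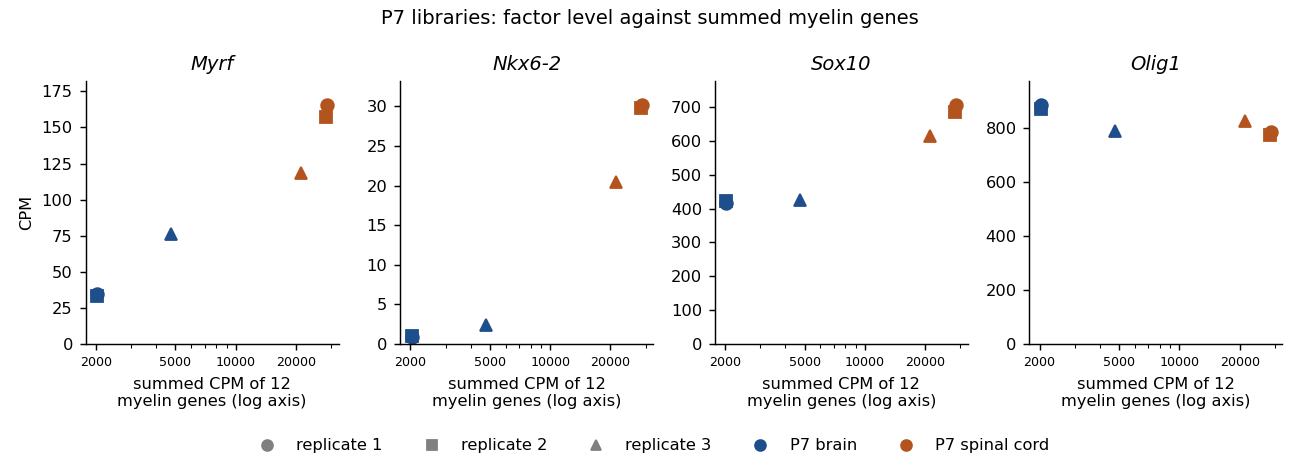
CPM of 4 factors in the 6 P7 libraries against the summed CPM of 12 myelin genes in the same library (log axis), with a colour for each region and a symbol for each replicate number. Myrf and Nkx6-2 are higher where the myelin sum is higher. Sox10 is also higher in every spinal cord library (616 to 706 CPM) than in brain (417 to 426 CPM), while Olig1 stays between 772 and 885 CPM.

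The 12 myelin genes, listed as genes that Sox10 and Myrf are known to activate, were also highest in P7 spinal cord. At E13.5 they summed to 258 to 420 CPM in brain and 152 to 218 CPM in spinal cord, a sum in the opposite order to Myrf. Of the 12, however, only 1 was called higher in brain at that age (all genes 3.53%) and 11 were not called. In spinal cord 12 of 12 were called higher at P7 and in brain 9, with Cldn11 called lower. At P7 12 of 12 were called lower in brain than in spinal cord. Mobp, a structural myelin protein, stood at 17.1, 17.1 and 81.9 CPM in P7 brain and at 1516, 1491 and 1029 CPM in P7 spinal cord, a difference of -5.49 ± 0.69 (adjusted p = 0.0001, limma). Mog, a protein of the outer myelin surface, differed by -5.02 ± 0.38 (adjusted p = 1.7e-06, limma). The median over the list was -3.98 at P7, beyond the fitted difference of each of the 8, although that of Nkx6-2 (-3.93) was close to it. Of 9 markers of newly formed oligodendrocytes 7 were called lower in P7 brain (all genes 4.35%) and none higher. The 9 include Mog, named above, and Tcf7l2, named below, so these lists are not independent.

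Levels were also set against Pdgfra in the same library. Sox10 was 12.3% to 16.2% of the Pdgfra level in P7 brain and 30.6% to 33.0% in P7 spinal cord, Olig2 13.7% to 16.7% and 23.8% to 26.0%, and Olig1 26.0% to 29.9% and 36.5% to 41.0%. All 8 factors were lower in brain on this scale without overlap, but so were 75.5% of all genes, with Pdgfra itself at 2640 to 3402 CPM in P7 brain and at 2014 to 2140 CPM in P7 spinal cord. By age, all 8 were higher at P7 relative to Pdgfra without overlap in spinal cord, where 3.82% of genes were, and in brain 6 of the 8 were, where 2.89% of genes were. The brain exceptions were Nkx6-2 and Myrf. Nkx6-2 was 0.035% to 0.081% of Pdgfra at E13.5 and 0.024% to 0.089% at P7, and Myrf 0.587% to 1.35% and 1.00% to 2.88%, so that the ages overlapped.

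Among other regulators of the lineage, those known for patterning and specification were mostly lower at P7 in brain. Of 12 tested, 9 were called lower there and 1 higher, against 16.7% and 11.0% of all genes. In spinal cord 4 were called lower and 3 higher, nearer to the shares of all genes, 18.2% and 16.9%. Dlx1, a factor of the ventral forebrain that opposes Olig2, fell by 5.14 in brain (± 0.23, adjusted p = 2.5e-09, limma), and Gli3, a mediator of hedgehog signalling, fell by 4.44 in spinal cord (± 0.16, adjusted p = 4.5e-10, limma). Gsx1 rose in both regions (1.84 and 3.02). Nkx6-1, a relative of Nkx6-2, was higher in spinal cord at both ages (brain minus spinal cord -3.48 ± 0.20 at E13.5 and -2.13 ± 0.20 at P7, adjusted p = 1.3e-07 and 1.2e-05, limma), at 30.1 to 36.5 CPM in E13.5 spinal cord and 3.02 to 3.95 CPM in P7 spinal cord. Thus Nkx6-1 fell in the spinal cord while Nkx6-2 rose there.

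Of 18 other factors that favour differentiation, 4 were called higher and 1 lower at P7 in brain (all genes 11.0% and 16.7%), and the list's median there was -0.33, below the -0.19 of all genes. In spinal cord 7 were called higher (all genes 16.9%). Klf9, a thyroid hormone target, rose by 2.74 ± 0.14 and 3.59 ± 0.14 (adjusted p = 9.3e-09 and 6.9e-10, limma). St18, a zinc finger factor, was the one called lower in brain (-1.27 ± 0.31), and it was 1 of 2 called lower in brain than in spinal cord at P7 (-1.79 ± 0.31, adjusted p = 0.001, limma), with Tcf7l2, a Wnt effector of early differentiation (-1.04 ± 0.22, adjusted p = 0.0043, limma). Both were highest among the P7 brain libraries in replicate 3, as Myrf was, with St18 at 29.3 CPM against 11.9 and 11.8.

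Of 11 factors that restrain differentiation, 2 were called higher and 3 lower at P7 in brain, which is not far from the shares of all genes (11.0% and 16.7%). In spinal cord 8 were called higher and 2 lower, against 16.9% and 18.2% of all genes. Id4 and Sox11 fell in both regions, with log2 changes of -3.08 and -2.72 in brain and of -2.17 and -1.46 in spinal cord, and Hey1, a Notch effector, rose by 1.67 and 2.92 (all SE 0.13 to 0.16). At E13.5 7 of the 11 were called higher in brain (all genes 3.53%), among them Sox2 (2.02 ± 0.12, adjusted p = 1.7e-07, limma). In the interaction of region and age 7 of the 11 were called lower (all genes 9.66%, a share that depends on the scaling). At P7 the one called was Tmem98, a membrane protein that binds Myrf and blocks its cleavage, lower in brain by -2.02 ± 0.27 (adjusted p = 0.0002, limma). Tmem98 stood at 5.15, 5.39 and 6.87 CPM in P7 brain and at 29.9, 31.8 and 16.2 CPM in P7 spinal cord, so that replicate 3 was the lowest of the spinal cord libraries, as it was for Myrf.

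Over the 12 libraries the log2 levels of the 8 fell into a graded set. Pearson's r was 0.997 for Nkx2-2 and Zfp488, 0.997 for Olig1 and Olig2 and 0.992 for Sox10 and Sox8, and it was lowest for Olig1 and Nkx6-2, at 0.617. These values describe 12 points that fall into 4 groups and share the contrast of age, so they are high for most pairs. The tested genes most like Olig1 besides Olig2 were Rgcc (0.997) and Cspg4 (0.996), the gene of the OPC antigen NG2, and those most like Olig2 besides Olig1 were Snx25 (0.995) and Bcan (0.995). Sox10 was closest to St6gal2 (0.999), Trappc2 (0.998) and Pcdh10 (0.997), and Sox8 to Adgrb1 (0.999), Vxn (0.999) and Kctd4 (0.998). Nkx2-2 and Zfp488 shared Tmem255b (0.996 and 0.997), followed by Tgfa (0.996) for Nkx2-2 and Inava (0.996) for Zfp488. Nkx6-2 was closest to Ephb1 (0.996), Cldn14 (0.995) and Slc35a2 (0.994), and Myrf to Iffo1 (0.994), Pdgfa (0.991) and Jmy (0.991). Cldn14, a claudin, had the same step as Nkx6-2, at a mean of 0.445 CPM in P7 brain and 15.9 CPM in P7 spinal cord.

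At P7 the order of the 8 per kilobase differed between the regions. In P7 brain it ran from Olig1 (392 ± 23.9 CPM per kb, SD, n = 3) over Olig2 (179.9 ± 5.33), Sox8 (141 ± 2.79) and Sox10 (138 ± 1.55) to Zfp488 (16.5 ± 2.0), Nkx2-2 (13.9 ± 1.91), Myrf (5.61 ± 2.82) and Nkx6-2 (0.721 ± 0.444). In P7 spinal cord it ran from Olig1 (367 ± 13.1) over Sox10 (219 ± 15.5), Olig2 (204 ± 3.07) and Sox8 (169 ± 4.89) to Nkx2-2 (21.7 ± 0.991), Zfp488 (20.8 ± 1.66), Myrf (17.2 ± 2.94) and Nkx6-2 (14.1 ± 2.91). Neighbours whose ranges overlapped were Sox8 and Sox10 and then Zfp488 and Nkx2-2 in brain. In spinal cord they were Sox10 and Olig2, and each next pair from Nkx2-2 down to Nkx6-2. The last 4 factors thus covered a wide range in P7 brain and a narrow one in P7 spinal cord, from 14.1 to 21.7 CPM per kb on average.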

How the data were processed

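RNA was sequenced from 12 libraries of Pdgfra/GFP+ cells in 4 groups of 3. Per the labels and the study's methods, the authors aligned reads with STAR 2.5.0a to mm10, counted them per gene with featureCounts 1.5.0-p1, splitting multi-mapping reads between their loci and rounding, and deposited CPM on effective library sizes. In 3 of 12 columns (E13.5 spinal cord replicate 3 and P7 spinal cord replicates 1 and 2) the deposited values, treated as signal, sum to more than CPM on the plain read total would, since the authors divided by a rescaled library size smaller than the number of reads. Read counts were recovered from the smallest step of each deposited column, and 100.0% of values came out whole (tolerance 0.01 reads). Rows that repeated 3 identifiers were summed, leaving 47069, and 0 columns were left unused. Whether counting used strand was not given in the sources used here.

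Genes at 0.7 CPM or more in at least 3 libraries (18319) were tested with limma 3.58.1 (trend, moderated) on log2(CPM + 0.5), in R 4.3.3, with 1 mean per group and Benjamini-Hochberg adjustment over all genes tested. Ratios within libraries were tested by exact two-sided permutation within strata (400 splits). Since nothing says how the pools were drawn, p-values measure the spread between these samples only. A value of 3 reads, the limit that a count of 0 allows, was 0.0792 to 0.506 CPM, and such limits cover counting error only. Alternatives were other pseudocounts, filters and scalings, edgeR 4.0.16, limma-voom and DESeq2 1.42.0 on recovered reads, a replicate block, and leaving out each library. Others were the compared groups alone, and P7 replicates 1 and 2 averaged within each region. Those replicates lay close together, with myelin sums of 2030 and 2028 CPM in brain (replicate 3 at 4757). In spinal cord the sums were 28666 and 28279 CPM (replicate 3 at 21204). The paper describes pooled biological replicates. If replicates 1 and 2 were not independent, the P7 spread would be understated, which was not tested. On simulated data limma recovered 145 of 200 genes changed 2.5-fold and 190 of 200 changed 4-fold (P7 minus E13.5 in brain, 18319 genes). The simulation gave every gene the same dispersion and changed genes in P7 brain only. Recovery may be lower for genes with a wide spread, such as Olig1 in E13.5 brain (127 ± 51.3 CPM, SD). The members and gene lists were chosen with earlier results of these data known. The genes named are the 8 factors, Pdgfra, neighbours on the chromosome, the 3 tested genes most alike to each factor (no clone or predicted-gene names), and, per list and comparison, up to 2 called genes with the largest change in each direction. Dlx1, Gsx1, Nkx6-1, Klf9, St18, Tcf7l2, Sox2, Id4, Sox11, Hey1, Tmem98, Mobp, Mog, Cldn11 and Foxd3 come from these lists. A result on 1 marker gene is not reported here.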

Additional observations from a re-analysis of the deposited data

Results flagged for a closer look

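The difference between brain and spinal cord was itself different at the 2 ages for 4 of the 8 factors, by the interaction term of limma. The P7 difference minus the E13.5 difference was -1.32 for Olig1, -1.81 for Olig2, -1.45 for Sox10 and -3.58 for Nkx6-2 on the log2(CPM + 0.5) scale. For Olig1 and Olig2 the brain was higher at E13.5 and the regions were not called apart at P7. For Sox10 the fitted difference went from 0.79 in the embryo to -0.66 in the pups, and for Nkx6-2 the spinal cord was higher at P7 only by the call rule. The median gene moved by -0.24 in the same comparison.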

How the results depend on the processing

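The number of factors called and the total number of genes called in each comparison stayed within 1.5 times the value as reported, under all alternatives run, but the split by direction did not. Genes called higher in brain at P7 went from 416 to 928 with DESeq2, and for the interaction genes called higher went from 1220 to 2131 with DESeq2 and genes called lower from 1770 to 968 with median ratios. For single factors, 955 of 992 recomputed values kept their direction and side of the thresholds, 20 reversed, 13 became called and 4 were no longer called, and the causes were not tested. The reversals were all of small differences. Nkx2-2 between regions at E13.5 was -0.023 with median ratios, -0.10 with edgeR, -0.18 with limma-voom and -0.15 with DESeq2, and ran from -0.32 to 0.44 with single libraries left out. Zfp488 there ran from -0.62 to 0.12 with libraries left out. Olig2 at P7 was 0.0098 with TMM, 0.0556 with median ratios and 0.0559 with DESeq2. The change of the region difference in Zfp488 was 0.12 with TMM, 0.24 with median ratios, 0.11 with edgeR, 0.20 with limma-voom, 0.40 with DESeq2 and 0.0074 with P7 replicates 1 and 2 averaged, and ran from -0.45 to 0.28 with libraries left out. The ratio of Nkx6-2 to Nkx2-2 by age was -1.51 with a pseudocount of 0.1 (exact permutation p = 0.06).

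With each library left out in turn, the Nkx6-2 to Nkx2-2 ratio ran from -1.92 to -1.49 by age, from -2.05 to -1.61 by region and from -3.36 to -2.49 for the change. The Sox8 to Sox10 ratio by region ran from -0.054 to 0.072 and the Olig2 to Olig1 ratio by region from -0.090 to 0.021. Nkx2-2's change of the region difference was called only without E13.5 brain replicate 1 (-1.08, adjusted p = 0.044, limma). With a replicate block, 5074, 6438, 1595, 1212 and 2994 genes were called for age (brain, then spinal cord), region (E13.5, then P7) and their interaction, against 5068, 6436, 1595, 1213 and 2990 without it, and member counts did not move. With the block set within each age, 5435 and 7128 genes were called for age. Same-numbered libraries correlated by 0.31, 0.08 and 0.41 at E13.5 and by 0.01, 0.02 and 0.04 at P7, and not every pair was over 0.1, so the numbers were not taken to pair the samples; the labels do not tell. Depth limits Nkx6-2 and Nkx2-2 at E13.5, which rest on 5 to 12 and 5 to 64 reads per library.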

Other observations

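Motor neurons arise from the same ventral zone as Olig2-positive precursors. Of 5 tested motor neuron markers 4 were called lower and 1 higher in brain than in spinal cord at E13.5, with a median log2 difference of -1.70 (all genes 0.05). Their summed levels were 13.6 to 18.8 CPM in brain and 11.9 to 18.6 CPM in spinal cord, and all 5 were called lower at P7 in spinal cord (all genes 18.2%). Mnx1 was at 0 in both brain groups.

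Of 10 OPC markers 9 were called higher at P7 in each region (all genes 11.0% in brain and 16.9% in spinal cord), and the tenth (Vcan) was called lower in spinal cord. In brain at E13.5 5 were called higher (all genes 3.53%), and none differed by call at P7. The list holds Olig1, Sox10 and Pdgfra, so it is not independent of the results above. It also holds Bmp4 and Neu4, which the paper uses as hallmarks of committed precursors. The summed level of the 10 markers was 12560 to 13025 CPM in P7 brain and 11801 to 11947 CPM in P7 spinal cord. Microglia markers were called higher in brain at P7 for 5 of 5 tested genes, with a median log2 difference of 1.68 (all genes -0.19). Their sums were 23.7, 24.5 and 54.1 CPM in P7 brain, the highest in replicate 3, the library in which Myrf and Nkx6-2 were also highest.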
